A study of Mus musculus with 8 samples.

Results

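The genes described here are the mouse genes named Zfp followed by a number, a naming scheme for zinc finger proteins. A gene was taken when its name had that form and the authors' mean normalised read count over all libraries was at least 100, and Zfp42, Zfp36, Zfp598 and Zfp809 were left out. In all, 325 names of this form were in the table, 249 of them were at or above 100, and 246 genes remained, of 17597 genes in the table. They made up 2.49% of the 9899 genes at or above that level.

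The data came from total RNA of female mouse embryonic stem (ES) cells of an interspecific Mus castaneus by 129 background, grown with feeder cells, that carry a TetOn promoter at 1 Xist allele. The labels name the 129S allele, whereas the paper describes the line behind clones C3 and H5 as inducible from the Mus castaneus X chromosome. Both copies of Mettl3, the catalytic subunit of the m6A RNA methyltransferase, are fused at the C terminus to the degron FKBP12F36V, so that the small molecule dTAG-13 removes the protein. There were 8 libraries from 2 clones, C3 and H5: 4 untreated and 4 after 26 h of dTAG-13, 2 of each kind per clone, and doxycycline, which would induce Xist, was in neither group. For each gene 1 mean over the 8 libraries was used, so no value below carries an SD, a library cannot be set against another, and untreated and dTAG-13 cells are not compared.

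C2H2 zinc finger proteins make up a large family of DNA-binding proteins. Each finger is a short loop in which 2 cysteines and 2 histidines hold a zinc ion, and fingers stand in rows joined by a conserved linker. Many of these proteins begin with a KRAB box, which recruits the corepressor TRIM28 (KAP1) and through it histone H3K9 methylation, and in ES cells such proteins silence retrotransposons and keep imprinted regions marked. Other members of the naming scheme are transcription factors, or act on RNA, ribosomes or the spindle. A KRAB gene typically codes its box in short early exons and its fingers in a long last exon, and m6A is known to be frequent in long internal exons and last exons.

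The row of fingers can be read directly in the DNA of Zfp568, whose protein represses a placental transcript of Igf2. Its fingers 1 to 4 are shown because they stand in immediate succession in the last exon, with the codons of the 2 cysteines and 2 histidines in capitals. They lie on the plus strand of chromosome 7 (GRCm38) at chr7:30022724-30022786, chr7:30022808-30022870, chr7:30022892-30022954 and chr7:30022976-30023038.
Zfp568 finger 1: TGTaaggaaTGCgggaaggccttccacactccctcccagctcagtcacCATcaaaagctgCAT
Zfp568 finger 2: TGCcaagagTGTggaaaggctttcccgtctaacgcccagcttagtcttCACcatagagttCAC
Zfp568 finger 3: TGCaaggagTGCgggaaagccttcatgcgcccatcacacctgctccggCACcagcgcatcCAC
Zfp568 finger 4: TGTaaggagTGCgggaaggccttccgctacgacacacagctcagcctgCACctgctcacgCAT

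Over their 63 bases, fingers 1 and 4 shared 43 bases, the most of any pair of the 4, and fingers 2 and 3 shared 35, the fewest. The first finger found in Zfp57, a KRAB protein that protects imprinted methylation, is shown for comparison, at chr17:37009679-37009741 on the plus strand, as is the first of Zfp281, a transcription factor of the pluripotency network without a KRAB box, at chr1:136626063-136626125 on the plus strand.
Zfp57 finger 1: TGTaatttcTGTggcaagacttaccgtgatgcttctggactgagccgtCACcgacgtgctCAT
Zfp281 finger 1: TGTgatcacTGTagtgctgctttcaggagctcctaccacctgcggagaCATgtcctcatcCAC

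The members were mostly of low to middle abundance. Their mean count ran from 100 to 9264 with a median of 405, against a median of 676 in the 9440 other protein-coding genes at or above 100. Of the 246 members, 49 lay between 100 and 200, 94 between 200 and 500, 57 between 500 and 1000, 28 between 1000 and 2000, and 18 at 2000 or above. A mean count of at least 1000 was reached by 18.7% of the members and by 37.4% of the other genes. All members together held 1.23% of the summed mean counts of the genes, and the 10 highest held 24.7% of the members' sum.

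Because long genes collect more reads, genes were compared by the mean count per kb of merged exons. On this scale the members' median was 90.5 per kb, with quartiles of 50.9 and 165, and the range was 11.5 to 1218. The other protein-coding genes had a median of 147 per kb and quartiles of 64.3 and 357. These are descriptions of the pooled libraries, and no test was made of the difference.

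**Figure D1:**
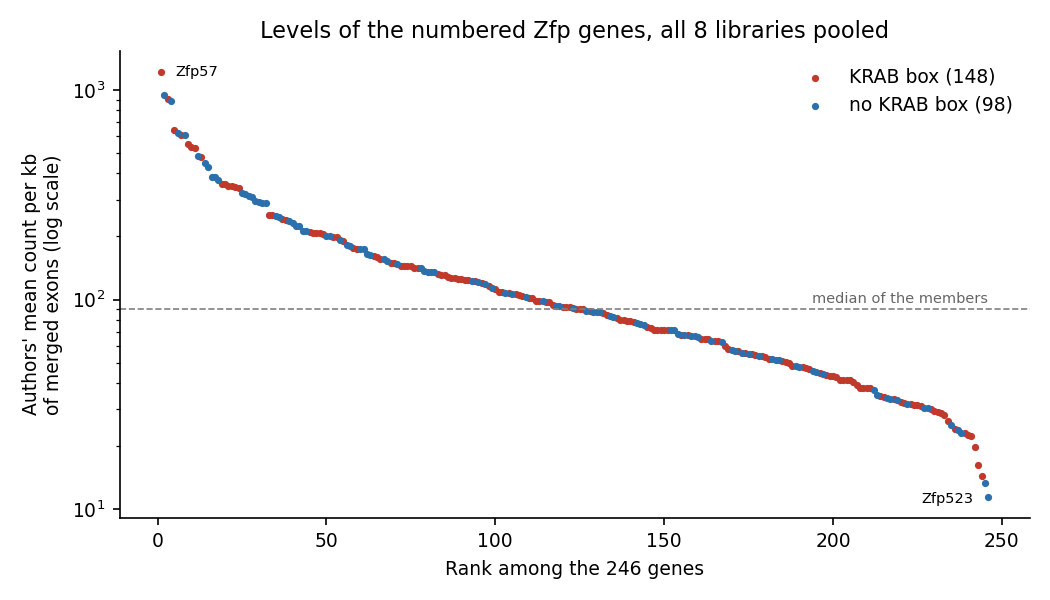
Authors' mean count per kb of merged exons (log axis) of the 246 genes, ordered by rank, each point 1 gene, red with and blue without a KRAB box; the dashed line is the median of 90.5 per kb. On this scale genes of both kinds are found along the whole range, from Zfp57 at 1218 per kb to Zfp523 at 11.5 per kb.

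Per kb of merged exons Zfp57 had the highest level of all members, 1218 per kb (mean count 4612), and stood at the percentile 93.6 of all genes at or above the limit. The order at the top depends on the length used. Per kb of the longest coding transcript Zfp207 was highest at 2177 and Zfp57 next at 1776. Per kb of sequence found in no other gene Zfp534 was highest at 1205 and Zfp57 next at 1066. That of Zfp534 is an upper value, since reads may also have come from sequence it shares with other genes. Per kb of merged exons Zfp57 was followed by Zfp207, which binds the spindle checkpoint protein Bub3, at 947 per kb. Zfp568 came next at 906 per kb, then Zfp106, an RNA-binding protein, at 888 per kb, so these 3 genes lay within a narrow band. Zfp106 had the highest mean count of all members, 9264, and 26.1% of its exon bases overlap a gene on the other strand.

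A step separated these 4 genes from the following ones on the scale of merged exons. Zfp110, known as the neurotrophin receptor interacting factor Nrif, was at 644 per kb and Zfp281 at 625 per kb. Zfp936 was at 613 per kb, Zfp706 at 609, Zfp534 at 555 and Zfp869 at 533 per kb. Of these 10 highest members, 6 carried a KRAB box: Zfp57, Zfp568, Zfp110, Zfp936, Zfp534 and Zfp869. The share over all members was 60.2%. For Zfp534 only 50.2% of the sequence windows are its own, which is taken up again below.

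At the other end, Zfp523 had the lowest level per kb of merged exons, 11.5, with a mean count of 100. Per kb of its longest coding transcript, which is 2864 bases against 8735 bases of merged exons, it was at 35.0, and Zfp827 was then the lowest member at 15.8. Per kb of merged exons Zfp827 was at 13.4 and Zfp169 at 14.4. Zfp846 was at 16.2 per kb and Zfp709 at 19.8. The last exon of Zfp846 is annotated with 12249 bases and that of Zfp709 with 6808, and a long annotated exon lowers a level per kb where only a part of it is transcribed. Whether this was so was not tested.

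At the limit of 100 the ordering was continuous. The 3 lowest members were Zfp523 with a mean count of 100, Zfp583 with 105 and Zfp775 with 106. The 3 genes of the same naming just below were Zfp810 with 93.8, Zfp771 with 91.2 and Zfp382 with 89.9. In all, 75 genes fell below the limit apart from Zfp36, and 16 of the 325 names had a mean count under 10.

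The 4 genes left out differed widely. Zfp42, the pluripotency marker Rex1, had a mean count of 9104 and 4840 per kb, above every member on the per kb scale. Zfp598, a ubiquitin ligase that senses collided ribosomes, had a mean count of 800 and Zfp809, a KRAB protein that silences murine leukaemia virus, one of 658. Zfp36, which binds AU-rich mRNA through fingers of another type, had a mean count of 65.8 and would not have reached the limit.

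Of the KRAB proteins with known targets, all 6 on the list were members. Their median was 349 per kb, beside 90.5 per kb for all members, and Zfp708 lay below the latter. Besides Zfp57 and Zfp568, the imprint protector Zfp445 was at 357 per kb and Zfp961 at 340. Zfp932, which binds endogenous retroviruses, was at 207 per kb. Zfp708, which binds a retrotransposon family too, was lowest at 60.0 per kb, and 96.3% of its exon bases are shared with another annotated gene. For Zfp932, 63.6% of the windows were found in no other gene.

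Regulators of transcription and chromatin covered a wide range. Of the 15 on the list, 13 were members, and Zfp521 (mean count 61.8) and Zfp703 (1.65) were below the limit. The 13 members had a median of 147 per kb. Zfp281 was the highest. Zfp143, which activates many promoters and small nuclear RNA genes, was at 320 per kb, Zfp292 at 296 and Zfp219 at 290. Zfp644 stood at 212 per kb, Zfp462 at 193 and Zfp217 at 147. Around 100 per kb were Zfp148 at 103, Zfp410, an activator of Chd4, at 98.4, Zfp335 at 92.8 and Zfp423 at 91.1. Zfp384 was at 67.6 and Zfp827 at 13.4 per kb.

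Of the 10 genes listed for roles in RNA, ribosomes, the spindle and protein modification, 9 were members, with a median of 202 per kb, and Zfp638 was not listed under that name. After Zfp207 and Zfp106 came Zfp830, a splicing factor, at 429 per kb. Zfp593, a ribosome biogenesis factor, was at 313 per kb, with 77.9% of its exon bases overlapping a gene on the other strand. Zfp622, which acts late in assembly of the large ribosomal subunit, was at 202 per kb. The SUMO ligase Zfp451 was at 135 and the ubiquitin ligase Zfp91 at 119 per kb. Zfp346, a binder of double-stranded RNA, was at 57.5 and Zfp326 at 55.8 per kb, both below the members' median.

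The partners of KRAB proteins had a higher median level than the members. All 8 corepressor and heterochromatin genes on the list passed a mean count of 100, with a median of 735 per kb. Trim28, which binds the KRAB box, was at 4534 per kb (mean count 18853), above every member. The heterochromatin proteins Cbx5, Cbx3 and Cbx1 were at 1062, 835 and 634 per kb, and the maintenance methyltransferase Dnmt1 was at 867. The H3K9 methyltransferase Setdb1 was at 389 per kb, Chaf1a at 215 and Atf7ip, a partner of Setdb1, at 39.5.

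The cell type was read from its markers. The 7 ES cell markers ran from 464 per kb (Klf4) to 16142 (Dppa5a), with a median of 2646. Of the 7 markers of fibroblasts, the feeder cells of such cultures, Thy1 alone passed a mean count of 100, at 116, and the list's median was 1.11 per kb; Postn was lowest with a mean count of 0.768. How much the feeders contribute to any member was not tested.

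The members had few exons and a long last exon. The last exon of the longest coding transcript had a median of 2705 bases, against 1431 in the other genes, and 72.8% of the members but 36.6% of the other genes had a last exon of at least 2000 bases. The last exon took up a median of 83.2% of the transcript, against 49.8%. The members had a median of 5 exons and the others of 10. Whole transcripts were close in length, at medians of 3494 and 3203 bases.

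**Figure D2:**
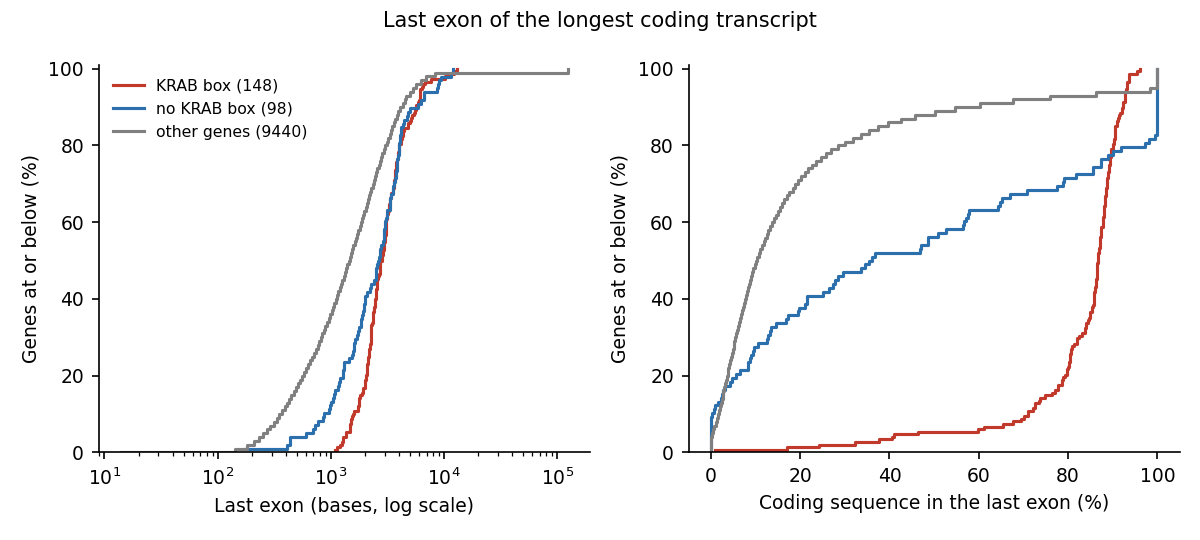
Cumulative share of genes (vertical, %) by the length of the last exon (left, bases, log axis) and by the share of the coding sequence in it (right, %), for 148 members with a KRAB box (red), 98 without (blue) and 9440 other protein-coding genes (grey, drawn at each percentile). Both kinds of members have longer last exons than the other genes, and in the right panel the curve of the KRAB members rises late, with a median of 86.7%.

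The last exon of the members held most of the coding sequence, though it was not itself mostly coding. Its coding bases had a median of 1250.5, beside the median length of 2705 bases. It held a median of 84.8% of the coding sequence, against 10.1% in the other genes. More than 50% of the coding sequence lay there in 183 of 246 members (74.4%) and in 11.0% of the other genes. The stop codon was in the last exon in 96.3% of the members and 95.4% of the others.

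The longest last exons belonged to Zfp738 with 12927 bases, Zfp846 with 12249 and Zfp704 with 11879. Zfp738 and Zfp846 carry KRAB boxes and had levels of 24.1 and 16.2 per kb. Zfp704, without a KRAB box, codes only 6.42% of its protein there and was at 52.0 per kb. The shortest last exon, of 175 bases, was that of Zfp414.

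A KRAB box was found in 148 of the 246 members (60.2%), by amino acid patterns for either part of the box, and in 0.561% of the other protein-coding genes. In all, 103 members matched both parts. At least 1 zinc finger was found in 241 members, and the median was 11 fingers, with a range of 0 to 40. The members hold 2694 fingers together, and 146 members have at least 10. KRAB members had a median of 12 fingers and the others of 7.

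By the finger pattern used, the members with the most fingers had no KRAB box. Zfp142 had 40, Zfp462 had 33 and Zfp236 had 30, and of these Zfp142 codes 4 in its last exon and the others none. With cysteines fixed at 2 and histidines at 3 residues apart they had 17, 8 and 26, and the KRAB member Zfp26 had 22. By the pattern used, no finger was found in Zfp185, Zfp330, Zfp365, Zfp839 and Zfp935. The annotated protein of Zfp935 has a KRAB box and 150 residues, and all exon bases of this gene are shared with another gene.

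In KRAB members the fingers were gathered in the last exon. In the transcript with the longest coding sequence, all fingers were coded in the last exon in 146 of the 147 KRAB members with a finger, and the exception was Zfp941. Among members without a KRAB box this held for 42 of 94, and 37 of 94 had no finger in the last exon at all. Of all fingers, 99.5% of those in KRAB members and 52.7% of those in the other members lay in the last exon. In Zfp281 all 4 fingers are in the last exon, as in Zfp292 with 14, while Zfp207, Zfp106 and Zfp523 have none there.

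**Figure D3:**
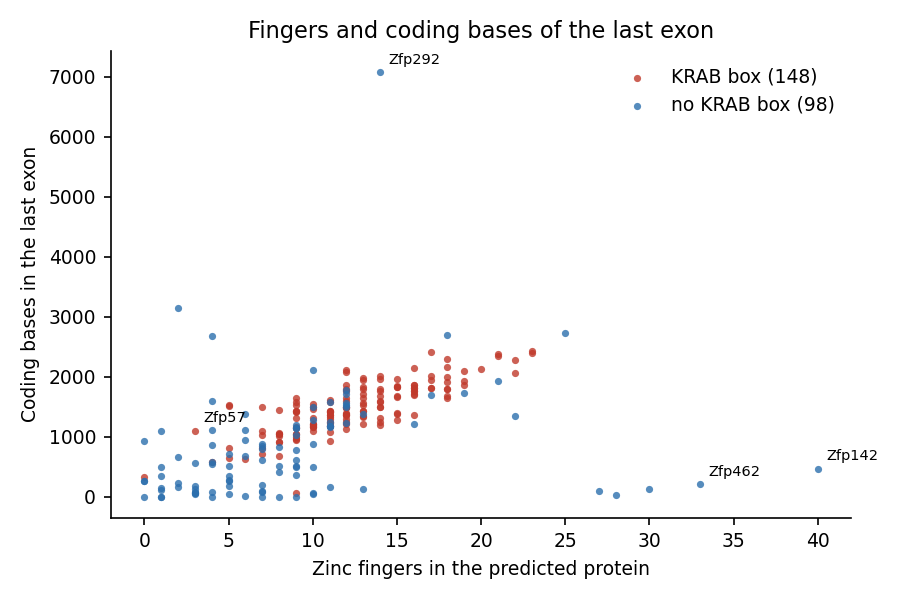
Coding bases in the last exon (vertical) against the number of zinc fingers in the predicted protein (horizontal), each point 1 member, red with and blue without a KRAB box, in the transcript with the longest coding sequence. The KRAB members lie along a rising band, and Zfp142 and Zfp462, with 40 and 33 fingers, lie near the bottom.

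Across members, the number of fingers and the coding bases of the last exon rose together, with a Spearman correlation of 0.78 over the 148 KRAB members and 0.41 over the 98 others. This is a description across genes, which are not independent, since a finger itself takes up coding bases and neighbouring genes share ancestry. Correlations of the level per kb with structure were nearer to 0. They were -0.19 with the length of the last exon, -0.11 with the number of fingers and 0.01 with the share of unique windows, over the 246 members. A last exon is part of the length that the level is divided by, and in the 9440 other genes the correlation with the last exon was -0.32. Members and other genes alike were taken at a mean count of at least 100, the same value that the level is made from.

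KRAB members were lower than the rest of the family in mean count, and less so per length. Their median mean count was 343 against 542 in members without the box, and per kb it was 85.2 against 105. The interquartile ranges overlapped, at 46.0 to 142 per kb with the box and 57.0 to 212 without it. A mean count of at least 1000 was reached by 17 of 148 KRAB members and by 29 of 98 others.

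The sequence GGACT is the commonest core of the sites that the METTL3 complex methylates, at the adenosine. It was searched on the sense strand only. At least 1 GGACT stood in the last exon of 189 members (76.8%) and of 71.2% of the other genes. The members had a median of 2 and the others of 1, but their last exons are longer. Per kb of last exon the members' median was 0.63 GGACT, below the 0.83 of the other genes. KRAB members had 0.58 and the remaining members 0.69 per kb. The shorter core GGAC, which includes every GGACT, was present in the last exon of 97.6% of the members and 92.1% of the other genes, at medians of 2.16 and 3.12 per kb.

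Sites of the 3 genes below are shown because their genes are among the highest members per length, and each is the GGACT of the last exon nearest to the stop codon, with GGACT in capitals. The last letter of that of Zfp57 is the first of the stop codon (chr17:37010505-37010529, plus strand), that of Zfp281 has its adenosine 98 bases before the end of the coding sequence (chr1:136627854-136627878, plus strand), and that of Zfp568 has it 530 bases after that end (chr7:30024162-30024186, plus strand).
Zfp57: aagaagattcGGACTgatttctgac
Zfp281: catagagtaaGGACTtcagtgtcag
Zfp568: aaagccatttGGACTgcggagtgtg

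Zfp568 has 6 GGACT in its last exon, and Zfp57 and Zfp281 have 3 each. Zfp738, with the longest last exon, has 12. Zfp207, Zfp106, Zfp936 and Zfp534, also among the 10 highest members, have none there. A match of these letters is no evidence that the site is methylated, and the Spearman correlation of the level per kb with the density of GGACT in the last exon was -0.03 over the 246 members.

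The members were unevenly spread over the genome. They lay on 20 chromosomes, with 57 on chromosome 7, 35 on chromosome 17 and 26 on chromosome 13. Chromosome 7 held 23.2% of the members and 6.98% of the other genes, chromosome 17 held 14.2% and 4.80%, and chromosome 13 held 10.6% and 3.89%. On chromosome 17, 32 of 35 members had a KRAB box, and on chromosome 18 none of 7.

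Members whose starts were less than 500 kb from the next were put into groups. There were 9 groups of at least 5 members, which held 85 members, and 88 members had no neighbour. Only members counted as neighbours, so those without one can still lie near zinc finger genes of other names or below the limit. A KRAB box was found in 82.4% of the 85 grouped members and in 29.5% of the 88 without a neighbour. The median level was 79.9 per kb in the former and 107 per kb in the latter.

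The largest group, of 19 members, lay at chr17:21008903-23599487 (GRCm38) and all its members had a KRAB box. Its levels ran from 29.3 per kb (Zfp943) to 530 (Zfp229), with a median of 80.2. The group of 15 at chr13:67069399-67827002, also all KRAB, ran from 24.1 (Zfp738) to 477 per kb (Zfp459), with a median of 71.6. The group of 12 at chr7:29768552-30169750 ran from 31.4 (Zfp82) to 906 per kb (Zfp568), with a median of 125.

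In the group of 10 at chr17:32765496-33631779 the spread was smaller, from 31.6 (Zfp563) to 117 per kb (Zfp472). In 5 of the 9 groups the highest gene lay between 477 (Zfp459) and 906 per kb (Zfp568), and it was a KRAB gene each time. In the remaining groups the highest genes were Zfp472, with a KRAB box, and Zfp428 (384 per kb), Zfp553 (237) and Zfp212 (174), without one. Of the 85 members of the 9 groups, 82.4% carried a KRAB box. Among these highest genes was Zfp110 on chromosome 7, at 644 per kb in a group with a median of 51.8.

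**Figure D4:**
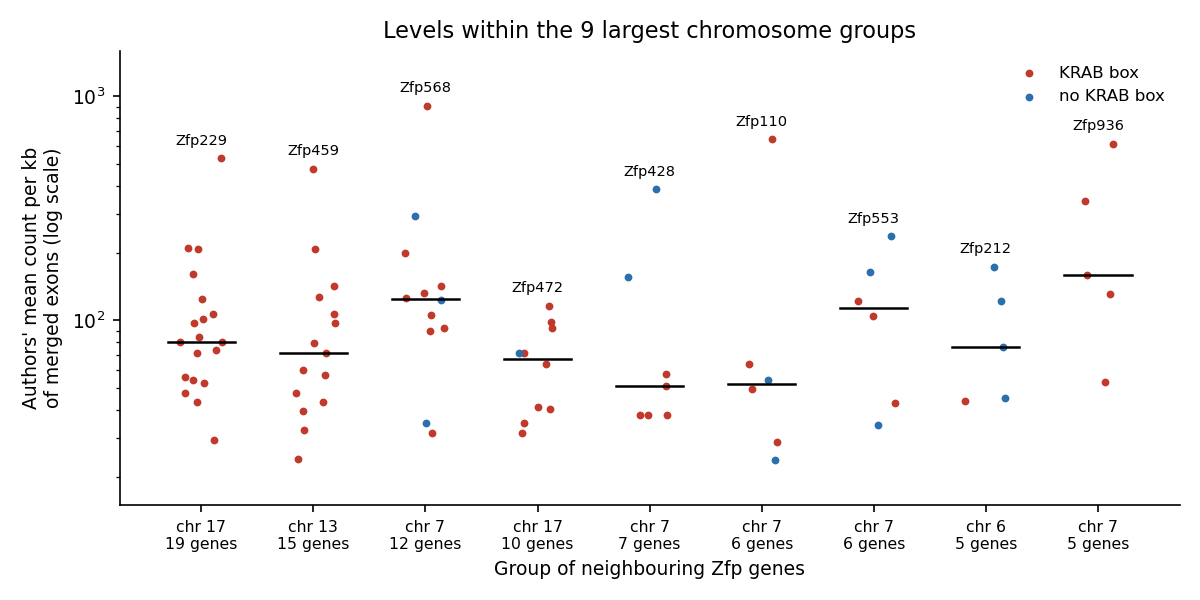
Authors' mean count per kb of merged exons (log axis) in the 9 groups of at least 5 neighbouring members, each point 1 gene, red with and blue without a KRAB box, the black line the group's median, side shifts only for legibility. In each group the name marks the highest gene, and medians run from 50.7 to 159 per kb.

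Close relatives can share reads, so sequence was compared with the annotated transcripts of all other genes in windows of 81 bases. For each gene the windows were those of the transcript with the longest coding sequence, so exons outside it are not covered. In 176 of 246 members (71.5%) every window was unique, against 82.9% of the other genes. Under 90% of the windows were unique in 21 members (8.54%), against 6.51% of the other genes. Of the 21 members, 19 had a KRAB box, beside 60.2% of all members. In 6 of the 21 the gene that shared the most windows was itself a member, and in 16 it lay on the same chromosome. The levels of these genes are uncertain, since an alignment that keeps unique reads can undercount them.

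The most extreme case was a pair on chromosome 17, Zfp960 with 25.1% and Zfp97 with 26.6% unique windows. The pair shared 1799 windows, 73.2% of those of Zfp960 and 72.1% of those of Zfp97. Their mean counts were 648 and 420, or 243 and 156 per kb of merged exons. Over the unique windows of all their transcripts alone they were at 997 and 606 per kb. The latter are upper values, since reads may also have come from shared windows.

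Zfp600 on chromosome 4 had 25.5% unique windows and shared 66.6% of them with Rex2, which had a mean count of 672 beside 646 for Zfp600. Zfp534, also on chromosome 4, had 50.2% and shared 40.0% with Zfp987, with mean counts of 1600 and 2198. Zfp932 shared 34.4% with Gm15446, which had a mean count of 73.6 against 677. Zfp934 and Zfp808 on chromosome 13 shared 22.9% and 18.0% of their windows with each other, with mean counts of 541 and 974.

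**Figure D5:**
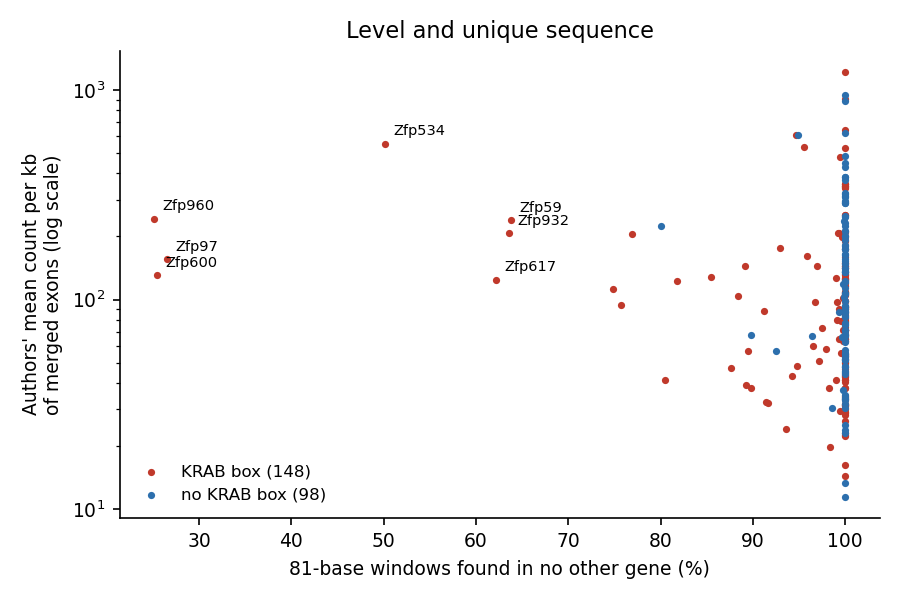
Authors' mean count per kb of merged exons (log axis) against the share of 81-base windows found in no other annotated gene (%), each point 1 member, red with and blue without a KRAB box. The windows are those of the transcript with the longest coding sequence. Most members lie at 100%, and the 7 named lie below 65%, all with a KRAB box and with levels of 125 to 555 per kb.

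Genes can also share bases by overlap. Exon bases were shared with another annotated gene in 79 members (32.1%) and with a gene on the other strand in 61, against 37.4% and 32.0% of the other genes. In 7 members more than 50% of the exon bases were shared: Zfp935, Zfp708, Zfp90, Zfp593, Zfp456, Zfp213 and Zfp58. For Zfp90, Zfp593 and Zfp213 the shared bases, 79.5%, 77.9% and 56.6%, lie on the other strand. For Zfp456, 59.2% of the exon bases are shared, and 52.5% overlap a gene on the other strand. How strand was used in counting is unclear. The kit was stranded, the methods give default parameters for TEtranscripts, and the name of the deposited table includes the word reverse. Zfp607 was placed through an older symbol on the gene now called Zfp607a, but it could also stand for Zfp607b, so its level of 48.3 per kb and its structure are uncertain. The other member placed through an older symbol was Zfp191, on the gene now called Zfp24.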

How the data were processed

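Total RNA of 8 libraries (4 untreated, 4 with dTAG-13) was sequenced in pairs after a TruSeq stranded kit; the labels' extraction text describes chromatin RNA, and the methods whole-cell RNA. According to the study's methods, rRNA reads were removed with bowtie2, pairs were aligned with STAR to an N-masked mm10 genome keeping unique alignments, duplicates were removed with Picard, and TEtranscripts counted genes and transposable elements. The deposited signal is 1 mean normalised count per feature over all libraries, made by the authors. The table's 5 other columns hold the authors' comparison of dTAG-13 with untreated cells (log2 fold change, its standard error, test statistic, p-value and adjusted p-value) and were not used, so no treatment effect and no test is given. Depth per library and the spread between libraries are unknown here. Columns of single libraries not used: 0.

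Of 17597 genes, 16660 were matched to GENCODE vM21 (GRCm38) by symbol and 722 by an older symbol; of the 246 members, 244 and 2. Lengths, exons, coding sequences and motifs were taken from GENCODE, which may differ from the annotation that was counted. Structure refers to the longest coding transcript, and proteins, fingers and the exon of each finger to the transcript with the longest coding sequence. Proteins were translated from GENCODE, since no protein table was used. A finger was a pair of cysteines 2 to 4 residues apart, 12 further residues, and a histidine followed after 3 to 5 residues by a histidine or cysteine. The KRAB patterns were widened in steps after member proteins that they missed, such as Zfp57, had been looked at. Uniqueness was counted in windows of 81 bases on either strand against annotated transcripts of genes not overlapping the member, not against the genome, so copies outside the annotation are not covered. Shares of unique windows refer to the transcript with the longest coding sequence. Levels per kb of unique sequence refer to the windows of all transcripts of the gene. The window and pattern functions were tested on simulated data. Python 3.11.15, numpy 2.4.6, pandas 2.3.3, scipy 1.17.1, numba 0.67.0 and matplotlib 3.10.9 were used.

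Genes named are the 10 highest and 5 lowest members per kb, 3 on each side of the limit, the 3 with the longest last exon, most fingers and fewest unique windows, the 4 genes left out, and the role and marker lists. Others (the groups' highest and lowest genes, partners of shared sequence, members without a finger or with large overlap) were chosen after their values were seen. Members and lists were chosen with earlier results of these data known.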

Additional observations from a re-analysis of the deposited data

How the results depend on the processing

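No paired analysis was possible because the values used are 1 mean per gene over all libraries, and for the same reason no library could be left out. Of the 18 alternatives run, 14 kept their value within 1.5 times for counts, 0.1 for correlations, or the 95% interval of the median or share, and 4 did not. The median mean count was 295 with no minimum. The median level per kb was 112 with the longest coding transcript as the length. The share of members with a KRAB box was 41.9% where both parts of the pattern were required. The median of GGACT per kb was 0.78 over the whole transcript. With a minimum mean count of 50 there were 282 members, with 200 there were 197, and with the 4 genes kept there were 249. Narrower KRAB patterns, an alternative added after seeing the data, gave 138 and 140 members in place of 148. Without the members of shared sequence or large overlap, also added after seeing the data, the median of the remaining 218 was 88.2 per kb. With windows of 50 bases, 31 members had under 90% unique windows. With 1000 kb between starts there were 12 groups of at least 5 members.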
